A study of Mus musculus with 8 samples.

Results

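The regions described here are wide domains of H2AK119ub that were called in control epidermal progenitors and not in progenitors lacking Eed. They are the control H2AK119ub peaks of 8000 bp or more that share 0 bp with every Eed cKO peak. Of 4621 control peaks, 928 had that width, and 353 of these were absent from the 2541 Eed cKO peaks. The domains cover 4.60 Mb in all. They were chosen by control peak width and by lack of overlap, so both quantities are given as descriptions only.

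Chromatin immunoprecipitation and sequencing (ChIP-seq) was done on epidermal progenitors of the back skin of newborn mice (postnatal day 0), taken by cell sorting for EpCAM+ and Sca1+ cells with high α6-integrin. The 2 groups used are Control, with 2 H2AK119ub libraries, and Eed-/- (labelled Eed cKO), also with 2. The series has 8 libraries, and the remaining ones (1 H2AK119ub library of Ring1a-/- Ring1b-/- cells and 3 inputs) were not analysed here. Not given in the sources used here are the Cre driver, the sex of the mice and whether libraries came from separate animals. Each genotype has 1 peak list with positions alone, so no value below carries a replicate error and no test was made. Depth is unknown: a shorter Eed cKO list can come from loss of the mark, from shallower sequencing or from another calling threshold, and these cannot be told apart.

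H2AK119ub is histone H2A with 1 ubiquitin on a lysine near its C-terminal end, placed by the Ring1a and Ring1b ligases of Polycomb repressive complex 1 (PRC1). Eed belongs to the core of Polycomb repressive complex 2 (PRC2), the enzyme complex that methylates lysine 27 of histone H3. Forms of PRC1 with a Cbx subunit bind that methyl mark, while variant forms can reach unmethylated CpG-rich DNA without it. In epidermal progenitors Polycomb is known for keeping genes of other lineages and cell cycle inhibitors silent. Of the marker genes of the sorted cells, Krt5, Krt14, Trp63, Itga6, Itgb4 and Col17a1 had no peak at their ends in either list, which says nothing on their expression.

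The start regions of genes in the widest absent domains are shown first, since CpG-rich DNA is where Polycomb domains are known to be centred. Each run is the 250 bases before the first listed start inside the domain (RefSeq, GRCm38.p6, the assembly also called mm10), 5′ to 3′ on the gene's strand, with every CG in capitals. They were taken in order of domain width among domains holding a gene of the lists described below. The Cdkn2a run lies at chr4:89294620-89294869 on the minus strand, and the Fezf1 run at chr6:23248265-23248514 on the minus strand. The Sp8 run lies at chr12:118846079-118846328 on the plus strand, and the Nkx3-2 run at chr5:41764221-41764470 on the minus strand.
Cdkn2a: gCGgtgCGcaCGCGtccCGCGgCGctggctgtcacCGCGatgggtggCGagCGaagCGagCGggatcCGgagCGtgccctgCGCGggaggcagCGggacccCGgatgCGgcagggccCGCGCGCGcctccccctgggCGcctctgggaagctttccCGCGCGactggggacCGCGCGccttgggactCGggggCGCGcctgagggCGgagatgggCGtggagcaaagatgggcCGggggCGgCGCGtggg
Fezf1: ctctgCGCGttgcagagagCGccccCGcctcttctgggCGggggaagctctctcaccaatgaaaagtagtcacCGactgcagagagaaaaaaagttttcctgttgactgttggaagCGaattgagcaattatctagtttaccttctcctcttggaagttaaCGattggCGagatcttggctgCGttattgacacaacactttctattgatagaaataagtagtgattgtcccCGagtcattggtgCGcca
Sp8: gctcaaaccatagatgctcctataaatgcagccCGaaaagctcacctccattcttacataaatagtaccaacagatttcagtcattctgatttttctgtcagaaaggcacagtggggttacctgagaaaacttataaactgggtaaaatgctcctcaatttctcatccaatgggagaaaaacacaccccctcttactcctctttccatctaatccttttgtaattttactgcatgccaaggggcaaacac
Nkx3-2: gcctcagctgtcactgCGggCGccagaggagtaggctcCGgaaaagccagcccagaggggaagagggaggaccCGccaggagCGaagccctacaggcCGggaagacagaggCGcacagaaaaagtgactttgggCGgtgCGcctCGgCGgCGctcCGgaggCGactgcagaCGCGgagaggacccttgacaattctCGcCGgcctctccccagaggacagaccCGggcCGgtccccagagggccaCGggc
The Cdkn2a run held 40 CG and was 78.4% GC, and that of Nkx3-2 held 21 CG. The Fezf1 run held 12 CG, and the Sp8 run held 1 CG at 40.8% GC, so domains of nearly the same width (40.9 and 39.9 kb) began their genes in unlike sequence.

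MicroRNA loci of 2 kinds are also shown, since they lay in absent domains with no protein-coding gene, and their mature sequences (RefSeq, GRCm38.p6) are given with the seed, bases 2 to 8, in capitals. They were chosen after their values were seen. The first is Mir9-2, whose product is known for its part in making neurons, in a 37.9 kb domain at chr13:83710988-83748926.
miR-9-5p: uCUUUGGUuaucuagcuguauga
The other is the Mir106a to Mir363 cluster on the X chromosome, a relative of the growth-promoting Mir17 to Mir92 cluster, in a 12.0 kb domain at chrX:52741528-52753499.
miR-106a-5p: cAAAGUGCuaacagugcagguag
miR-20b-5p: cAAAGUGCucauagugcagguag
miR-18b-5p: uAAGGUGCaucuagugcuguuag
miR-19b-3p: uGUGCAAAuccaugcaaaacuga
miR-92a-3p: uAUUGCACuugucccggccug
miR-363-3p: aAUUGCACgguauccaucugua
Within the cluster miR-106a-5p and miR-20b-5p share the seed AAAGUGC, and miR-92a-3p and miR-363-3p share AUUGCAC. The nearest Eed cKO peak was 593.6 kb from the Mir9-2 domain and 367.5 kb from the X chromosome cluster. In all, 5 of 353 absent domains (1.42%) held a microRNA hairpin, beside 15 of the 575 wide control peaks with an overlapping Eed cKO peak (2.61%). Wilson intervals for counting error, 0.61 to 3.27 and 1.59 to 4.26, overlap, and the second set was also wider. These shares therefore do not set the 2 sets apart. The share was 0.78% over all control peaks (36 of 4621) and 0.40% over the narrower absent peaks.

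The share of peaks absent from Eed cKO was 62.1% over all control peaks and 38.0% over those of 8000 bp or more. Both figures are what the choice of domains rests on. Widths of the absent domains ran from 8.00 to 55.2 kb with a median of 10.7 kb, and 10% of them exceeded 20.3 kb. The wide control peaks overlapped by an Eed cKO peak had a median of 13.3 kb and reached 136.8 kb. By width, 136 of 282 peaks of 8 to 10 kb were absent (48.2%), then 143 of 320 at 10 to 15 kb (44.7%) and 36 peaks at 15 to 20 kb (30.3%). Above that, 30 of 123 peaks of 20 to 30 kb (24.4%), 7 of 71 of 30 to 50 kb (9.86%) and 1 of 13 of 50 kb or more (7.69%) were absent. Absent domains were thus a smaller share of each wider class. Width and overlap are both used by the rule, and a longer peak has more bases at which 1 bp can be shared. This fall was not tested.

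At the edges of the rule, values lay close together. Just inside the width limit were domains of 8003 bp at Erbb4, a neuregulin receptor gene, and 8022 bp at Hlf, a bZIP factor gene. Just outside, with no Eed cKO overlap, were peaks of 7990 bp at Bmi1 and Spag6 and 7970 bp at Fosl1 and Ccdc85b. The smallest overlap that kept a wide peak out was 282 bp of a 15.1 kb peak on chromosome 15, and the next was 296 bp of an 8.11 kb peak in the span of Rnf220. The smallest gap among absent domains was 656 bp, for a 9.14 kb domain on chromosome 11 that lies 15.1 kb from Phb. Over all wide peaks that met an Eed cKO peak, the median share of the peak covered was 70.2%, and 6 were covered by under 10%.

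The widest absent domain of 55.2 kb held no protein-coding gene and is described below with its neighbours near Trps1. The next, of 49.4 kb at chr4:89267246-89316678, held all of Cdkn2a and Cdkn2b, genes for cell cycle inhibitors of the Ink4 and Arf kinds, and lay 1512 kb from an Eed cKO peak. A 40.9 kb domain at chr6:23238782-23279728 held all of Fezf1, a forebrain zinc finger factor, and the end of Cadps2, which acts in vesicle release. A 40.2 kb domain covered 62.3% of the span of Vax2, a homeobox factor of the ventral eye, and lay 597.5 kb from an Eed cKO peak. A 39.9 kb domain at chr12:118830166-118870091 held all of Sp8, a limb and forebrain factor, and met the end of Abcb5. All 4 of these domains at gene ends thus stood 304.2 kb or more from any Eed cKO peak.

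Other domains among the 15 widest were nearer to one. A 42.1 kb domain inside the span of Zdbf2, an imprinted gene expressed from the paternal copy, had an Eed cKO peak 29.1 kb away. The 28.7 kb domain at Gata6, a factor of endoderm and heart, had one at 27.7 kb. The 28.7 kb domain at Xkr9 had one at 199.3 kb, and the 27.1 kb domain at Rnf220, a ubiquitin ligase gene, at 153.0 kb. Nkx3-2, a homeobox factor of the somites and skeleton, lay whole in a 28.6 kb domain that was 1897 kb from the nearest. The domain at Pom121l2 and Prss16 (26.9 kb) was 1392 kb away, and Prss16, a thymus protease gene, met a further absent domain of 8.91 kb.

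**Figure D1:**
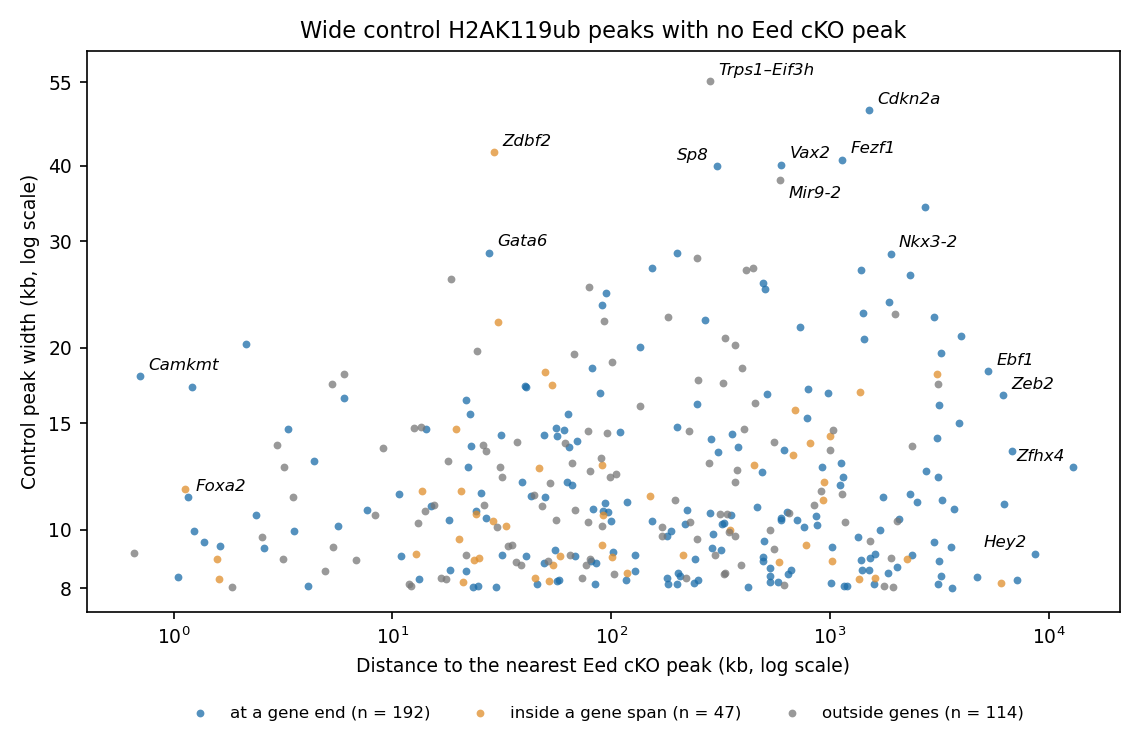
Each point is 1 of the 353 wide control peaks absent from Eed cKO, with the distance to the nearest Eed cKO peak (kb, log scale) on the x axis and control peak width (kb, log scale) on the y axis; colours give its place relative to protein-coding genes. Widths of 40 kb or more occur from 29.1 kb (Zdbf2) to 1512 kb (Cdkn2a) from the nearest Eed cKO peak, and the farthest domain is at Zfhx4.

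Genes were counted as marked when an end of the gene span, with 2000 bp on either side, met a domain. By this count 224 of 21883 protein-coding genes (1.02%) had an end at an absent domain, and 591 (2.70%) at a wide control peak overlapped in Eed cKO, with 6 genes in both. The 6 are Dlx2, Foxa2, Kazald1, Npas3, Nr2f1 and Sp6. Of the 224 genes, 43 lay whole inside a domain. Eed cKO peaks lay at an end of 11 of the 224 and within the span of 29, and 30 had either. The gene lists below were set beside these background shares without a test, and many genes stand in more than 1 list.

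Developmental transcription factor genes made up 51 of the 224. Over the 433 genes of the Hox, other homeobox, Pax, Sox, Fox, T-box, Gata, bHLH and zinc finger lists, 11.8% had an end at an absent domain and 196 (45.3%) at a wide peak that met an Eed cKO peak. Of the 242 factor genes at any wide peak, 21.1% were thus at absent domains, beside 27.7% of the 809 genes of all kinds at wide peaks. The median width of the absent domains at the factor genes was 14.3 kb, beside 10.75 kb for all 224 genes. With start sites alone, which left 144 genes at absent domains, the Pax, Sox, Fox, T-box and Gata list went from 12 genes to 6, the bHLH list from 9 to 5 and the zinc finger list from 10 to 5.

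Among the 137 homeobox genes outside the Hox clusters, 18 were at absent domains and 84 at wide peaks that met an Eed cKO peak. After Vax2 and Nkx3-2 the widest were at Vax1 (22.2 kb, 269.5 kb from an Eed cKO peak), Alx1 (20.9 kb, 3965 kb), a factor of the facial mesenchyme, and Lmx1a (19.6 kb, 3216 kb), a factor of the roof plate and dopamine neurons. Of 39 Hox genes, 23 were at wide peaks that met an Eed cKO peak, and only Hoxa3 and Hoxa7 had an end at an absent domain. That domain, of 9.94 kb at chr6:52211035-52220971, held all of Hoxa7 and lay 1.24 kb from an Eed cKO peak. Eed cKO peaks lay on both sides of it within the Hoxa cluster.

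Of 94 Pax, Sox, Fox, T-box and Gata genes, 12 were at absent domains and 39 at the other wide peaks. Besides Gata6, wide domains were at Tbr1 (26.4 kb, 2334 kb from an Eed cKO peak), a factor of cortical neurons, and Tbx18 (23.8 kb, 1873 kb), a factor of the ureter and heart mesenchyme. Sox17, an endoderm and endothelial factor, lay whole in a 16.8 kb domain 516.2 kb from one. Of 66 bHLH genes, 9 were at absent domains and 19 at the other wide peaks. Tcf21 lay whole in a 16.8 kb domain, Bhlhe22 in one of 14.6 kb, Olig1 in one of 14.3 kb and Neurod1 in one of 10.8 kb. Of these neural and mesenchymal factors, Olig1 was the nearest to an Eed cKO peak (31.3 kb) and Neurod1 the farthest (3675 kb).

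Zinc finger developmental factors gave 10 of 97 genes at absent domains and 31 at the other wide peaks. After Fezf1 and Sp8 the widest was at Osr2, a factor of palate and tooth, whole in a 22.5 kb domain 2988 kb from an Eed cKO peak. Sp6, a factor of tooth and hair, had a 20.3 kb absent domain 2.14 kb from an Eed cKO peak, and Nr2f1, an orphan nuclear receptor, one of 17.2 kb at 1.21 kb. Sp6 and Nr2f1 also had an end at a wide peak that met an Eed cKO peak, so both kinds of wide peak lay at these genes.

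Signalling genes were split by role. Of 94 Wnt, Fgf, Bmp, Gdf, Tgf-beta, Nodal and hedgehog ligands, 6 (6.38%) were at absent domains and 14 (14.9%) at the other wide peaks. Over all protein-coding genes these shares were 1.02% and 2.70%. The 6 were Wnt5a (17.2 kb), Fgf5 (15.5 kb), Fgf9 (11.9 kb), Wnt8b (10.4 kb), Gdf11 (9.72 kb) and Bmp3 (8.08 kb). The distance to an Eed cKO peak was 22.6 kb at Fgf5, which ends hair growth, 40.9 kb at Wnt5a and 1351 kb at Gdf11. Of 29 secreted antagonists of Wnt, BMP and hedgehog, 3 (10.3%) were at absent domains and 1 (3.45%) at another wide peak. With a width minimum of 10000 bp the count at absent domains was 0. The 3 were Sfrp5 (9.77 kb) and Wif1 (8.04 kb), which bind Wnt proteins, and Hhip (9.10 kb), which binds hedgehog. Of 56 receptor and Notch ligand genes, 4 (7.14%) were at absent domains and 2 (3.57%) at the others. Splits of so few genes do not set absent domains apart from the other wide peaks. Pdgfra, the receptor of platelet-derived growth factor in mesenchyme, had a 14.7 kb domain and Ror2, a Wnt5a receptor, one of 13.0 kb. Lgr5, an R-spondin receptor of hair follicle stem cells, had 10.4 kb and Erbb4 8.00 kb. Bmp3 and Ror2 also had an Eed cKO peak within the gene span. Their absent domains lay 4.125 and 4.392 kb from the nearest Eed cKO peak.

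The list of cell cycle inhibitor genes was short. Of 11, Cdkn2a, Cdkn2b and Cdkn2c were at absent domains (27.3%, beside 1.02% of all protein-coding genes) and 1 at another wide peak. Cdkn2a and Cdkn2b lay in the same domain. The domain at Cdkn2c, an Ink4 family inhibitor, was 13.4 kb wide, covered 80.9% of the gene and lay 307.5 kb from an Eed cKO peak. None of the 38 Polycomb genes had an end at an absent domain, and 2 did with a width minimum of 6000 bp. Beside the share over all genes, a count of 0 in so short a list does not set it apart.

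Gene families of the cell surface had shares at absent domains near the 1.02% over all protein-coding genes. The counts at absent domains of this width therefore do not set these families apart. At wide peaks that met an Eed cKO peak the shares were 8.02% for ion channel and 7.61% for axon guidance genes, beside 2.70% over all genes. There they ran from 2.57% (solute carrier) to 3.59% (extracellular matrix and protease) for the other families named here. Of 389 solute carrier genes, 4 (1.03%) were at absent domains, as were 2 of 187 ion channel genes (1.07%), 1 of 92 axon guidance genes (1.09%) and 2 of 167 extracellular matrix and protease genes (1.20%). Cacna2d1, a calcium channel subunit gene, had a 13.5 kb domain 6825 kb from an Eed cKO peak, among the farthest of all. Among 148 neurotransmitter receptor genes 1 was at an absent domain (0.68%), and among 106 cadherin and protocadherin genes 1 (0.94%). These small counts at absent domains depended on the width minimum. At 6000 bp they were 9 of 187 ion channel, 8 of 148 neurotransmitter receptor and 7 of 389 solute carrier genes. Beside them stood 430 of 21883 genes of all kinds. The ion channel and neurotransmitter receptor counts thus rose more steeply than the count of all genes, and the solute carrier count did not.

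Genes of skin cell types were counted the same way. Of 35 hair follicle genes, 4 were at absent domains: Wnt5a, Gata3, Fgf5 and Lgr5. The Gata3 domain, of 16.5 kb, lay 6.01 kb from an Eed cKO peak that falls within the span of the gene, a factor of the inner root sheath. Of 24 Merkel cell genes, 2 were at absent domains (Prox1, 12.7 kb, and Pou4f3, 9.53 kb) and 7 at the other wide peaks. Of 25 fibroblast and mesenchymal genes, Zeb2 (16.7 kb), Pdgfra and Prrx1 (12.2 kb) were at absent domains and 3 at the others. Of 14 endothelial genes, Sox17 and Erg (10.2 kb) were at absent domains. Of 28 suprabasal keratinocyte genes, Krt2 was (8.03 kb), and of 24 basal keratinocyte genes, 14 melanocyte genes and 19 leukocyte genes, none was. None of 30 housekeeping or 1110 olfactory receptor genes had an end at an absent domain. Over all protein-coding genes the share was 1.02%, so an empty count in a short list does not set that list apart. Of a shorter panel of 35 cell type markers (such as Krt5, Krt10, Pdgfra, Col1a1, Mitf, Ptprc, Pecam1 and Atoh1), Pdgfra alone had an end at one, and peaks of the mark do not show which cell in the sort carried it.

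**Figure D2:**
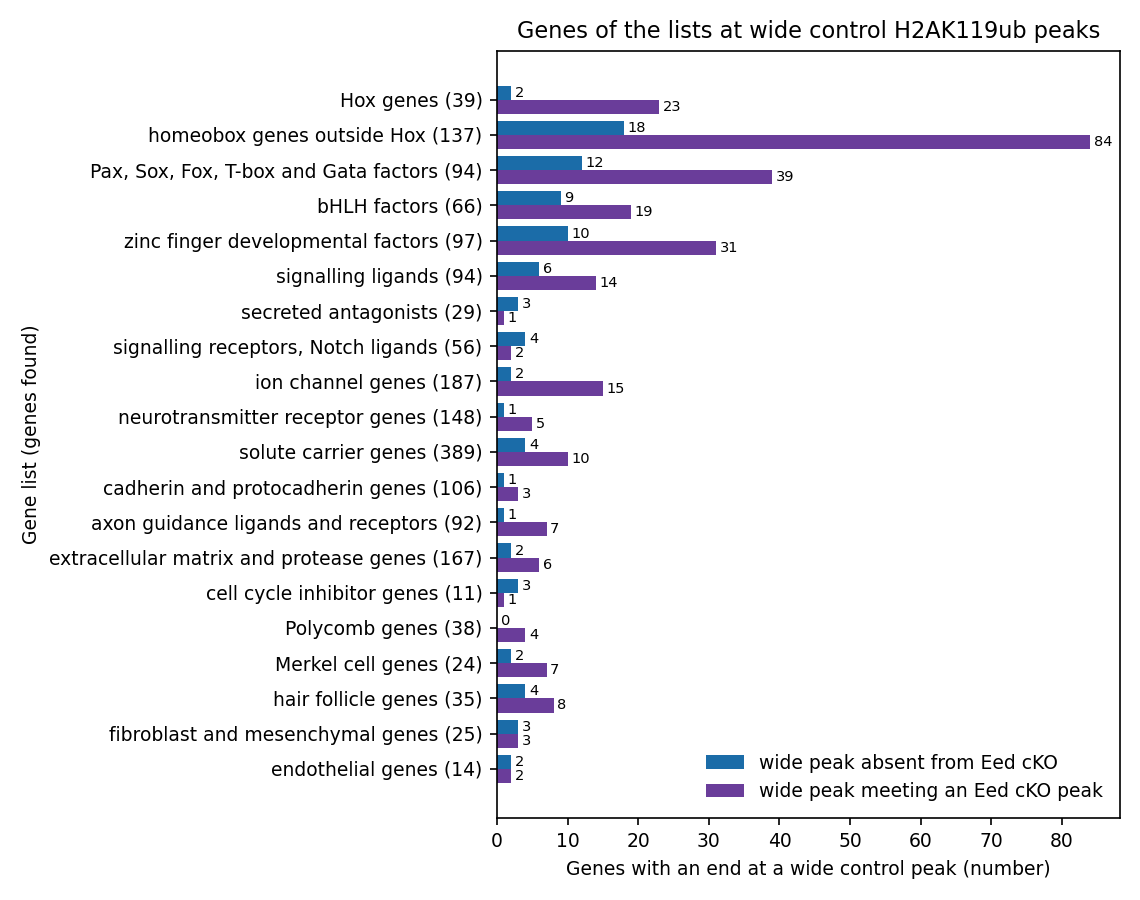
Bars give the number of genes of each list (y axis, with the number of genes found) that have an end at a wide control peak absent from Eed cKO (blue) or at one that meets an Eed cKO peak (purple); lists with under 4 genes at wide peaks are left out. Homeobox genes outside the Hox clusters have 18 and 84 genes, and cell cycle inhibitors 3 and 1.

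By position, 192 of the 353 absent domains (54.4%, 95% Wilson interval 49.2 to 59.5) were at a protein-coding gene end. A further 47 (13.3%, 10.2 to 17.3) lay inside a gene span and 114 (32.3%, 27.6 to 37.3) outside genes. The wide peaks that met an Eed cKO peak had 73.4% at a gene end (69.6 to 76.8) and 14.96% outside genes (12.3 to 18.1). The narrower control peaks absent from Eed cKO had 41.0% at a gene end and 33.4% outside. Over all 4621 control peaks the shares were 49.0% at a gene end and 29.2% outside. The intervals cover counting error only and treat peaks as separate, though neighbouring peaks can belong to 1 region. The overlapped peaks were wider, so the share at gene ends was also read within width classes, a split added after seeing the data. At 8 to 10 kb it was 55.9% of absent domains (47.5 to 63.95) and 65.1% of the others (57.0 to 72.3), and these intervals overlap. At 10 to 15 kb it was 50.3% (42.2 to 58.4) and 70.6% (63.5 to 76.8), and at 15 to 20 kb 55.6% (39.6 to 70.5) and 77.1% (67.0 to 84.8). At 20 to 30 kb it was 63.3% (45.5 to 78.1) and 84.9% (76.3 to 90.8), and the intervals overlap in both of these classes. At 30 to 50 kb the shares were close, 71.4% of 7 and 76.6% of 64.

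Where domains held genes, most held 1. Of all 353 absent domains, 35 (9.92%) met ends of 2 or more genes, near the 9.80% of all 4621 control peaks. Among the wide peaks that met an Eed cKO peak, which were also wider, 132 did (23.0%). The most at an absent domain was 4, in a 17.3 kb domain on chromosome 3 at Tafa3, Ppm1j, Rhoc and Mov10. Of the 114 domains outside genes, 43 (37.7%) met a long noncoding RNA gene. The share was 52.3% (45 of 86) among the other wide peaks outside genes and 31.0% among all control peaks there. For the 114 domains the median distance to a protein-coding gene was 43.6 kb, the longest was 392 kb, and 32 (28.1%) were over 100 kb away. Median widths were close by place: 10.7 kb at gene ends, 10.1 kb inside spans and 11.1 kb outside.

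**Figure D3:**
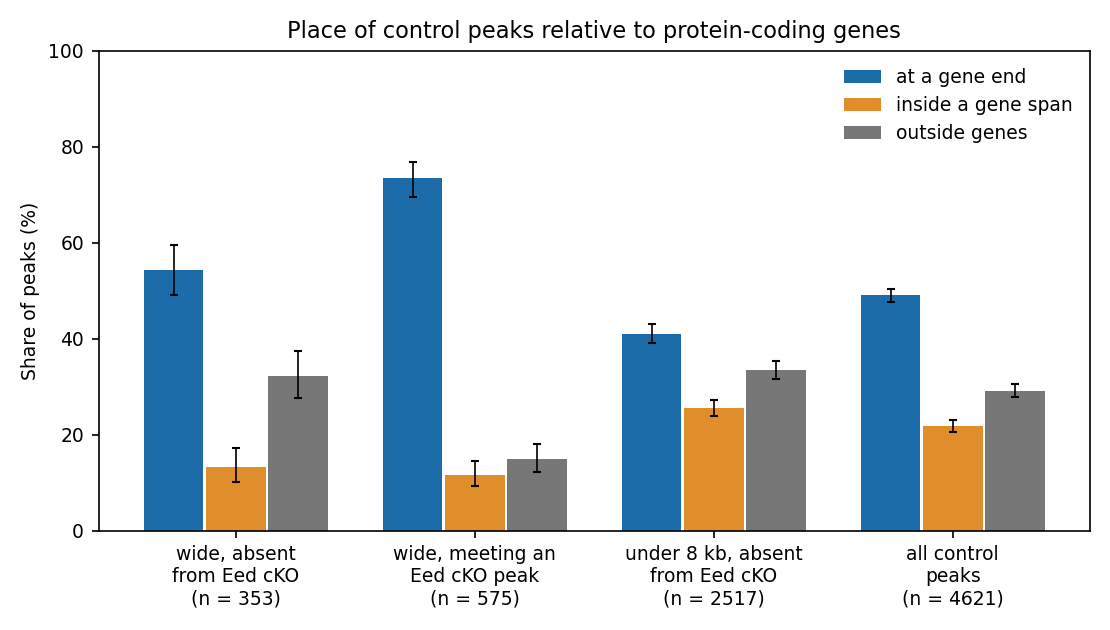
Bars give the share of peaks (%) at a gene end, inside a gene span or outside protein-coding genes for 4 sets of control peaks, with 95% Wilson intervals for counting error. Gene ends make up 54.4% of wide absent domains, 73.4% of wide peaks that meet an Eed cKO peak and 49.0% of all control peaks.

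The largest group of absent domains lay beside Trps1, a GATA-type zinc finger repressor known for its part in hair follicles. When domains less than 500 kb apart were chained, the largest run held 23 of the 353 (6.52%) between positions 50683019 and 52014057 of chromosome 15. The 23 cover 403.6 kb with a median width of 14.8 kb, and 19 lay outside genes. The stretch between Trps1 and Eif3h, chr15:50890632-51786562, is 895.9 kb without a protein-coding gene. Control peaks covered 50.7% of it (38 peaks, 454.1 kb), against 1.85% of chromosome 15 up to its last peak. Eed cKO peaks covered 2.92%, and shared 23.1 kb with control peaks, 5.09% of the control bases. The 55.2 kb domain at chr15:51055424-51110576 lay 164.8 kb from Trps1 and 282.0 kb from an Eed cKO peak. The span of Trps1 itself met 5 control peaks, 4 of them absent domains, and no Eed cKO peak. In this run 25 control peaks were wide, so 2 of them met an Eed cKO peak.

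**Figure D4:**
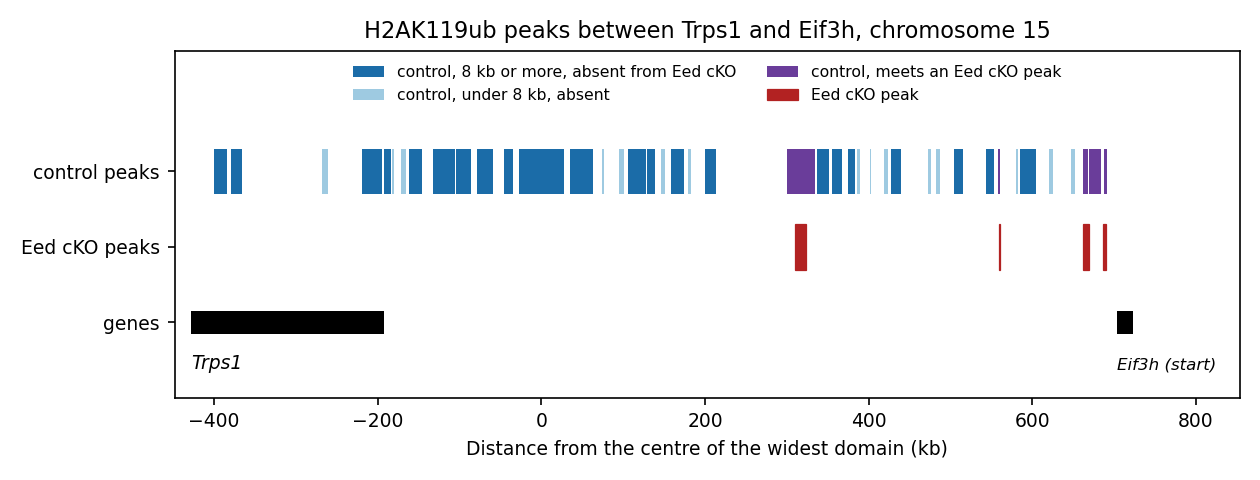
Peaks are drawn to scale along chromosome 15 as distance from the centre of the widest absent domain (kb), with control peaks in the upper row, Eed cKO peaks in the middle row and gene spans below (Eif3h is cut off after its start). Blue domains of 8 kb or more lie on both sides of the widest one, and the 4 Eed cKO peaks are all to its right.

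This run affects several totals. Without it, 330 of 903 wide peaks were absent (36.5%), of which 57.6% were at a gene end and 28.8% outside genes. Chromosome 15 had 32 absent of 63 wide peaks (50.8%) with the run and 9 of 38 (23.7%) outside it.

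Apart from this run, absent domains were mostly scattered. The chaining gave 261 runs, of which 211 held a single domain, 50 held 2 or more and 14 held 3 or more. The wide peaks that met an Eed cKO peak fell into 336 runs, 112 of 2 or more and the largest of 10. The median distance between neighbouring absent domains was 2.94 Mb, with a range from 0.616 kb to 79.2 Mb, beside a median of 0.870 Mb for the others, which are more numerous. Another absent domain lay within 100 kb of 97 (27.5%).

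Other control peaks were near, though often themselves absent. Any other control peak lay within 10 kb of 143 absent domains (40.5%), and the median distance to one was 19.7 kb. A control peak that met an Eed cKO peak lay within 10 kb of 35 (9.92%) and within 50 kb of 98 (27.8%). For the wide peaks that met one, another such peak was within 10 kb of 140 (24.3%) and within 50 kb of 246 (42.8%).

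The other runs of 3 or more were of unlike kinds. On chromosome 11, 10 absent domains between positions 95642771 and 97012351 lay on both sides of the Hoxb genes, in a stretch where 11 of 37 control peaks met an Eed cKO peak. Of these 10 domains, 5 had Skap1, a T cell adaptor gene, at an end or as the span they lay in, and the widest of those was 22.0 kb. At Meis1, a homeobox cofactor of Hox proteins, 3 domains of 17.4, 14.2 and 18.1 kb lay in 56.0 kb, 95.4% of which was in control peaks. No Eed cKO peak lay within 3074 kb of the Meis1 domains. The keratin cluster on chromosome 15 had 3 (at Krt80, 20.03 kb, Krt87, 8.13 kb, and Krt2, 8.03 kb) between positions 101371220 and 101818786, a stretch with 11 control peaks and no Eed cKO peak. Beyond this stretch, an Eed cKO peak lay 29.7 kb from the Krt2 domain. The keratin genes Krt1, Krt8 and Krt18, not in the stretch, had an Eed cKO peak at a gene end. The run around Cdkn2a and Mtap on chromosome 4 also held 3 absent domains and no Eed cKO peak. These runs were chosen after their values were seen.

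The distance from an absent domain to the nearest Eed cKO peak had a median of 179.6 kb and ran from 0.656 kb to 12.9 Mb. The lower and upper quartiles were 35.3 and 729 kb. An Eed cKO peak lay within 5 kb of 25 domains (7.08%), within 50 kb of 106 (30.0%), within 100 kb of 156 (44.2%) and within 1 Mb of 278 (78.8%). By place the median was 276.2 kb at gene ends, 90.4 kb inside gene spans and 91.7 kb outside genes. The narrower absent peaks had a median of 127.0 kb, with 198.1 kb at gene ends. In both width groups the absent peaks at gene ends had the larger median.

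The nearest domains lay next to Eed cKO peaks. After the one near Phb came Camkmt (17.9 kb wide, 0.702 kb away), Stac2 (8.35 kb, 1.04 kb), a domain in the span of Lemd1 (11.7 kb, 1.13 kb) and Foxa2 (11.3 kb, 1.16 kb), an endoderm and floor plate factor. Nr2f1, Hoxa3 with Hoxa7, and Msx3 (9.54 kb, 1.38 kb), a homeobox gene of the dorsal neural tube, completed the 8. Foxa2 and Nr2f1 also had an Eed cKO peak at a gene end. At this range, absence of a domain and a break between peaks in the Eed cKO list cannot be told apart.

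At the other end, the 8 farthest domains were 5270 kb or more from an Eed cKO peak. The farthest was at Zfhx4, a large zinc finger and homeobox factor, 12.7 kb wide and 12.9 Mb away. Next were Hey2, a Notch target of the bHLH class (9.13 kb wide, 8685 kb away), Foxp2, a forkhead factor of the brain (8.25 kb, 7197 kb), and Cacna2d1 at 6825 kb. Adcyap1, which encodes the neuropeptide PACAP, was 6237 kb away, Zeb2, a repressor of epithelial genes, 6173 kb, and a domain in the span of Tmeff2 6042 kb. Ebf1, a factor of B cells and adipocytes, had an 18.3 kb domain at the least distance of the 8. Of these 8, only Ebf1 and Zeb2 were wider than 15 kb.

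Absent domains were found on chromosomes 1 to 19 and X. The share of wide peaks that were absent was 52.8% on chromosome 1 (28 of 53), 50.0% on chromosome 3 (18 of 36) and 50.0% on X (5 of 10). It was 18.75% on chromosome 16 (3 of 16), 22.4% on chromosome 8 (13 of 58) and 23.5% on chromosome 7 (12 of 51). Of the 5 on X, 4 were at Irs4 (12.9 kb), at Esx1 (12.5 kb), at the microRNA cluster (12.0 kb) and near Tsc22d3 (8.14 kb).

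CpG content was read from the listed start regions, 300 bases around each start, as the observed count of CG over that expected from C and G. For 163 starts of 144 genes within 2000 bp of an absent domain the median ratio was 0.725 (95% order-statistic interval 0.690 to 0.760), with a median of 62.7% GC. For 439 starts at the other wide peaks it was 0.731 (0.696 to 0.757), so the medians were closer than their intervals are wide. For 864 starts at narrower absent peaks it was 0.683, and for all 21262 listed starts 0.567. A ratio of 0.6 or more was found at 118 starts of absent domains (72.4%, 65.1 to 78.7), 66.1% of the other wide peaks' starts (61.5 to 70.3) and 47.7% of all. Starts of 1 gene lie close together and are not independent. The Cdkn2a and Sp8 runs printed above stand far apart in this range, at 1.08 and 0.104 over their 250 bases.

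**Figure D5:**
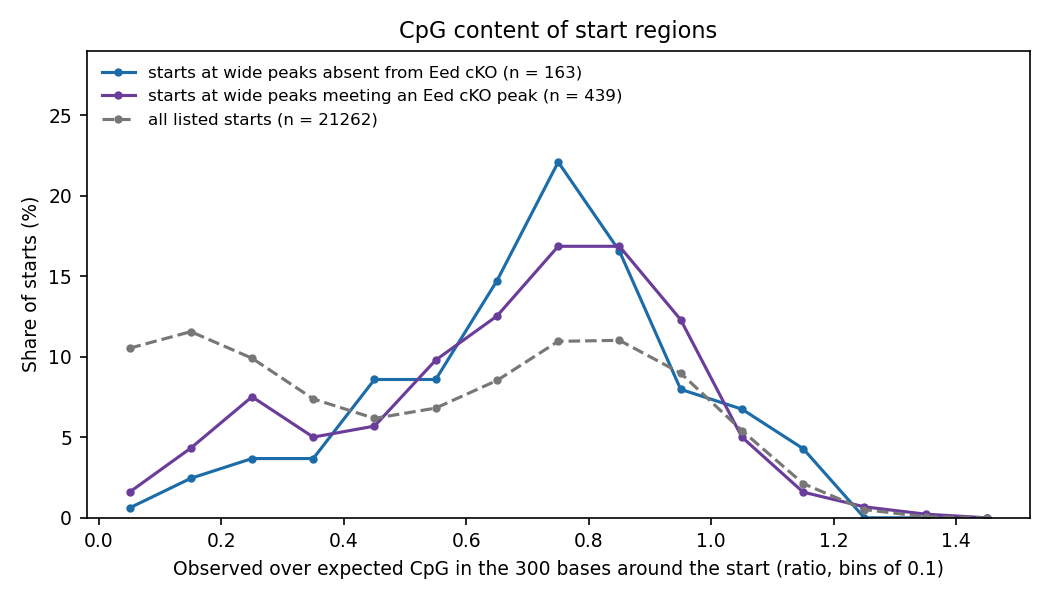
Lines give the share of start regions (%) by observed over expected CpG ratio, in bins of 0.1, for starts at wide absent domains (blue), starts at wide peaks that meet an Eed cKO peak (purple) and all listed starts (grey, dashed). Both wide sets peak above 0.6, while all listed starts also have a mode below 0.3.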

How the data were processed

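Groups were taken from the labels. The deposited files were 1 peak list each for Control and Eed cKO, giving chromosome, start and end (mm10 per the submitters' processing notes). Per the file headers, positions are the only values, with no score, so neither height nor depth is known. Per the submitters' processing notes, the tools included Bowtie2 2.3.3.1 and SAMtools 1.9. Not given in the sources used here are the caller of the peaks, its cutoff, the use of inputs and how the 2 libraries were joined.

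Overlap required 1 bp. A region was at a gene end if it met a window of 2000 bp on either side of an end of 1 of 21883 RefSeq protein-coding genes of GRCm38.p6. The gene table has no strand and listed start sites cover 17491 genes, so both ends replaced the planned 5′ end; start sites alone are an alternative. Exons were not annotated. Shares carry 95% Wilson intervals. The domains, 26 gene lists and alternatives were chosen with earlier results of these data known. Named are genes at the 15 widest, 8 nearest and 8 farthest domains, those with most genes, those at the edges of the rule, and up to 5 per list at the widest domains; others, such as Bmp3, genes in runs, the genes on X and those at both kinds of wide peak, were named after their values were seen. Some genes that the rule names are left out of the text. Functions were tested on simulated data. Versions were matplotlib 3.10.9, pandas 2.3.3, numpy 2.4.6, scipy 1.17.1 and Python 3.11.15.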

Additional observations from a re-analysis of the deposited data

How the results depend on the processing

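Of 104 values recomputed under 12 alternatives, 89 moved by less than their interval or by under 1.5 times for counts, and 15 moved by more. A width minimum of 6000 bp gave 663 absent domains (43.4% of peaks that wide), a median width of 8.17 kb, 1403 kb between neighbours and 430 genes. A minimum of 10000 bp gave 217 (33.6%), 13.5 kb, 4299 kb and 138 genes. Asking for no Eed cKO peak within 10000 bp left 34.4% of wide peaks absent. Eed cKO peaks of 3000 bp or more alone gave a median distance of 269.5 kb. Start sites alone, chosen after seeing the data, put 38.2% of domains at a gene end and 28.1% inside a span, with 144 genes. Leaving out the run beside Trps1, also chosen after seeing the data, kept every main value within these limits. Of 312 list counts, 36 moved by over 1.5 times, most of them counts of under 10 genes under another width minimum or with start sites alone. No paired analysis was possible because each genotype has 1 peak list for its 2 libraries. For the same reason no library could be left out, and peak heights, depth and replicate error limit every value.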
